A study of Homo sapiens with 15 samples.

Results

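The messages described here come from 10 abundant genes, of which 6 encode enzymes of glycolysis and lactate formation (GAPDH, ENO1, PKM, LDHA, ALDOA and PGK1) and 4 encode cytoskeleton proteins (ACTB, ACTG1, TUBA1B and TUBB). They were chosen by symbol, and every row of these symbols was taken, with or without the suffix .primary, in both deposited tables. Each table holds 15 such rows, 10 without the suffix (called plain rows here) and 5 with it (GAPDH, LDHA, PKM, TUBA1B and TUBB), among 22542 rows for 22Rv1 and 22169 rows for LNCaP. The sources used here do not say what the suffix means, so the rows were kept apart.

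The study sequenced RNA immunoprecipitates from 22Rv1 and LNCaP, established human prostate cancer lines grown without treatment, in 15 libraries. In this assay an antibody pulls a protein with its attached RNA out of a lysate of fixed cells, here after 30 minutes in 0.3% formaldehyde in the cold. The 22Rv1 groups were 2 libraries with an antibody against Brg1 (encoded by SMARCA4, the motor subunit of SWI/SNF nucleosome remodellers), 2 against Sfpq (encoded by SFPQ, a nuclear RNA-binding protein with roles in splicing), 3 with non-specific IgG and 2 of input, the RNA before precipitation. The LNCaP groups were 2 libraries each of Brg1, IgG and input. Each line is a single cultured line, no label says that lettered replicates came from separate cultures, and p-values therefore measure only the spread between libraries, which may be technical.

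Glycolysis turns glucose into pyruvate in the cytoplasm, and lactate dehydrogenase turns pyruvate into lactate, a route that many tumour cells use heavily. Actin filaments and microtubules, built from actins and from dimers of alpha and beta tubulin, carry cell shape, movement and division. The messages of both groups are spliced, exported and translated in the cytoplasm, they are plentiful in dividing cells, and several serve as reference transcripts. The comparison asked what share of each precipitate they took beside input and beside the IgG control.

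On GRCh38.p14, in RefSeq, ALDOA (aldolase A) lies on chromosome 16 from 30064279 to 30070420, GAPDH (the triose phosphate dehydrogenase) on chromosome 12 from 6534517 to 6538371 and PGK1 (phosphoglycerate kinase) on chromosome X from 78104248 to 78129295. ENO1 (enolase) lies on chromosome 1 from 8861000 to 8878686, PKM (pyruvate kinase) on chromosome 15 from 72199029 to 72231591 and LDHA (the lactate dehydrogenase A subunit) on chromosome 11 from 18394563 to 18408425. ACTB and ACTG1, the cytoplasmic beta and gamma actins, lie on chromosome 7 from 5527148 to 5530601 and on chromosome 17 from 81509971 to 81512799. TUBA1B (an alpha tubulin) lies on chromosome 12 from 49127782 to 49131395, and TUBB (a beta tubulin) on chromosome 6 from 30720352 to 30725422. Actins, tubulins and GAPDH have near-identical relatives and processed pseudogenes, and how the authors' counting divided reads among such copies is not given in the sources used here. The member rows may therefore hold or lack reads of those copies.

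The libraries differed widely in depth, from 490879 to 47871438 reads in 22Rv1 and from 22184 to 7506724 in LNCaP, where the IgG libraries held 22184 and 46297 reads. Shares are given in reads per 1000000 reads of the library (CPM). In the LNCaP IgG libraries 1 read was worth 45.1 and 21.6 CPM, so a count of 0 allowed a share of up to 135.2 and 64.8 CPM (3 reads). Rows with the suffix took 34.8% to 38.2% of reads in 22Rv1 input, 62.7% to 65.7% in Brg1, 27.5% to 33.4% in Sfpq and 39.1% to 62.5% in IgG, where replicate C stood apart at 39.1%. In LNCaP they took 35.2% to 42.3% in input, 50.8% to 60.5% in Brg1 and 66.8% to 66.9% in IgG. The message of the precipitated protein, SMARCA4, took 14401 ± 2765 CPM in Brg1 against 303 ± 9.83 in input of 22Rv1 (SD, n = 2 each), and 11585 ± 1666 against 215 ± 5.32 in LNCaP. SFPQ took 780.4 ± 64.8 CPM in Sfpq against 450.5 ± 1.85 in input of 22Rv1. The library labelled IgG replicate A of LNCaP goes against its label in this value, with SMARCA4 at 7212 CPM, beside 10406 to 12763 in Brg1, while replicate B held 194 CPM. The counts of member rows called in LNCaP comparisons with IgG are therefore also given without replicate A. Prostate luminal markers had plain rows for 4 of 8 genes in 22Rv1 and 8 of 8 in LNCaP. Markers of other cell types had rows for 1 of 8 genes (COL1A1) in 22Rv1 and 2 of 8 (COL1A1 and VWF) in LNCaP, at 17.0 to 19.5 CPM of input, and the other markers were not analysed here.

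Shares below are in CPM, and since transcript lengths were not used they are compared between libraries and not between genes. In 22Rv1, GAPDH took 416 and 511 in the Brg1 libraries, 855 and 920.2 in input, 549 and 424 in Sfpq and 435, 419 and 868 in IgG, with replicates always in the order of their letters. Its Brg1 and Sfpq libraries all lay below both inputs, and the means were 888 ± 45.9 in input, 463 ± 67.0 in Brg1 and 487 ± 88.4 in Sfpq (SD, n = 2 each). ENO1, which makes phosphoenolpyruvate, took 470.0 and 589.7 in Brg1, 658 and 689.9 in input, 624 and 517 in Sfpq and 341, 148 and 727 in IgG. The Brg1 and Sfpq libraries lay below both inputs here as well, with IgG on both sides. PKM, which makes pyruvate, took 485 and 589.9 in Brg1, 621 and 671 in input, 691 and 605 in Sfpq and 274, 342 and 581 in IgG. Its Brg1 and IgG libraries lay below both inputs, and its Sfpq libraries overlapped input.

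LDHA took 125 and 146 in Brg1, 181 and 217 in input, 195 and 148 in Sfpq and 115, 1.71 and 120.2 in IgG. The low value is 3 reads in IgG replicate B, with a 95% Wilson interval of 0.583 to 5.04, and it is 0.00903 times the pooled input share (exact counting interval 0.00186 to 0.0264). Intervals and floors here cover counting error only, since no molecular identifiers tell copies of a molecule apart. ALDOA, which splits fructose bisphosphate into triose phosphates, took 226 and 261 in Brg1, 330.0 and 373 in input, 302 and 251 in Sfpq and 142, 32.5 and 401 in IgG. PGK1, which makes ATP, took 109 and 124 in Brg1, 145 and 149.8 in input, 178 and 142 in Sfpq and 19.0, 147 and 159 in IgG. For both enzymes the Brg1 libraries lay below input, and IgG ran from far below input to above it, with a different replicate lowest in each gene.

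Among the cytoskeleton messages, ACTB took 603 and 743 in Brg1, 939 and 1015 in input, 959 and 858 in Sfpq and 510.2, 297 and 845 in IgG. ACTG1 took 711 and 847 in Brg1, 1254 and 1282 in input, 1045 and 957 in Sfpq and 489.6, 473 and 1228 in IgG. Both actins were lowest against input in Brg1 and in IgG replicates A and B, and IgG replicate C stood near input. TUBA1B took 558 and 630.1 in Brg1, 806 and 849 in input, 1024 and 829.5 in Sfpq and 405, 422 and 898 in IgG. TUBB took 581 and 707 in Brg1, 859 and 940.2 in input, 1236 and 1025 in Sfpq and 484, 409 and 919 in IgG. TUBB was the member whose Sfpq libraries both lay above both inputs.

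**Figure D1:**
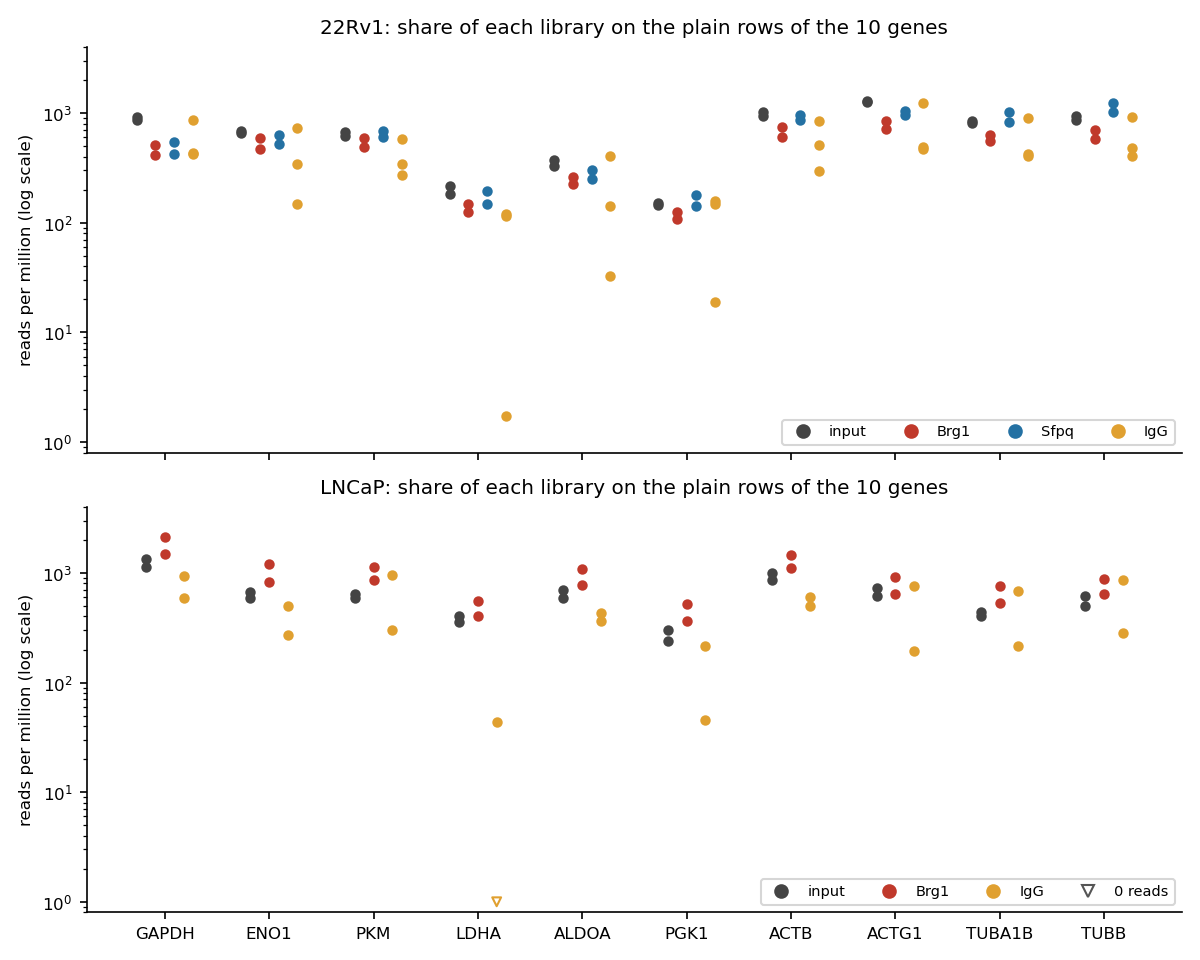
Share of each library on the plain rows of the 10 genes, in CPM on a log axis, with 1 point per library, 22Rv1 above and LNCaP below. In 22Rv1 the Brg1 points lie below the input points for all 10 genes, in LNCaP they lie above them for 8 of 10, and the open triangle marks LDHA at 0 reads in LNCaP IgG replicate A. With the deposited scaling the LNCaP direction turns, and within plain rows the 22Rv1 direction turns for 9 of 10.

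In 22Rv1, Brg1 libraries held smaller shares of all reads on the 10 plain rows than input, at ratios of mean share from 0.522 for GAPDH to 0.832 for PKM, and every Brg1 library was below every input. The same held for 88.5% of the 8839 plain rows tested, so the count of members was near the background of the table. Limma called 0 of 12 member rows tested (10 plain rows, GAPDH.primary and PKM.primary), with 1 at an unadjusted p under 0.05, against 0.0287% of 17404 rows called in the table. edgeR and DESeq2 also called 0, each with 1 at an unadjusted p under 0.05. For GAPDH the log2 fold was -0.94 (SE 0.38, limma adjusted p = 0.465), and for ACTB -0.54 (SE 0.43, limma adjusted p = 0.755).

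Relative to other plain rows, 8 of the 10 members stood above the middle of the table and 2 below it. The median log2 fold change was -0.50 over the 10 members, -0.67 over all plain rows, 0.48 over all .primary rows and -0.27 over all rows tested. GAPDH stood at the 28.8th percentile of the plain rows and ACTG1 at the 46.7th, and the other members lay between the 61.1st (ACTB) and the 84.0th (PKM). The spread that the test used is pooled over all groups of the line, and the calls depended on it. In a fit on only the 2 groups compared, 9 plain member rows were called lower and PKM.primary higher, where 47.4% of all rows were called lower. Without IgG replicate C, GAPDH (limma adjusted p = 0.0271) and ACTG1 (limma adjusted p = 0.0234) were called lower, where 3.9% of all rows were, and weights from voom called 7, where they called 56.4% of all rows.

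The direction in 22Rv1 depends on the reads used as the total. Among the reads on plain rows alone, 9 of 10 members were higher in both Brg1 libraries than in both inputs, against 37.4% of plain rows, and GAPDH was lower. GAPDH then took 1291 ± 112 per 1000000 plain reads in Brg1 against 1398 ± 18.5 in input, a ratio of 0.924. PKM took 1498 ± 121 against 1017 ± 17.0 (ratio 1.47) and ACTB 1874 ± 168 against 1538 ± 25.2 (ratio 1.22; SD, n = 2 each). The median ratio was 1.25 for the members and 1.005 for all plain rows tested, and limma called none of the member rows on this scale. A share of reads does not separate less of a message from more of other RNA, nor fewer cells from less RNA per cell, and the spike-ins that the labels describe were not analysed here.

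In the Sfpq libraries the members stood on both sides of input. Of the 10 plain rows, 4 lay below input in both Sfpq libraries (GAPDH, ENO1, ALDOA and ACTG1), 1 above (TUBB) and 5 overlapped, against 28.3% of plain rows below and 55.4% above in the table. GAPDH was at 0.548 times input and TUBB at 1.26 times, and these 2 were the lowest and the highest member in each Sfpq library. The ratio of the highest to the lowest member, each set against its mean input share, was 2.22 and 2.39 in Sfpq, 1.60 and 1.59 in Brg1 and at most 1.09 in the inputs. Limma called 0 of 12 rows, with 1 at an unadjusted p under 0.05, against 0.0345% of rows in the table, and edgeR and DESeq2 called 0, with 1 and 0 at an unadjusted p under 0.05. The log2 fold was -0.87 for GAPDH (SE 0.38, limma adjusted p = 0.762), -0.11 for ACTB (SE 0.43, limma adjusted p = 0.979) and -0.61 for PKM.primary (SE 0.42, limma adjusted p = 0.906).

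The members' median log2 fold change for Sfpq against input was -0.16, beside 0.26 over all plain rows. GAPDH stood at the 7.53rd percentile of plain rows, ALDOA at the 20.7th, ACTG1 at the 20.8th and TUBB at the 53.8th. Within plain rows the members' median ratio to input was 0.818, beside 1.13 for all plain rows tested, and GAPDH stood at 0.499 times input. The sign depended on the scaling for 5 members: ACTB lay above input with DESeq2's size factors (0.044), PKM below it with TMM factors, PGK1 and PKM below it within plain rows, and all 10, TUBA1B and TUBB included, below it with the deposited scaling. In a fit on only the 2 groups compared, GAPDH (limma adjusted p = 5.11e-05), ACTG1, ALDOA and PKM.primary were called lower, where 37.3% of all rows were.

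Set directly against Sfpq, which shares no input value in the difference, Brg1 libraries lay below both Sfpq libraries for 7 of 10 plain rows, near the 81.6% of plain rows that did so. GAPDH, ENO1 and ALDOA overlapped, at ratios of 0.952, 0.929 and 0.879. TUBB was at 0.570 times Sfpq (log2 -0.81, 95% interval -1.68 to 0.07) and TUBA1B at 0.641 times (log2 -0.63, 95% interval -1.53 to 0.26). Limma called 0 of 12 rows, with 1 at an unadjusted p under 0.05, against 2.63% of rows, edgeR called 0 with 1, and DESeq2 called 1 (PKM.primary) with 2, where it called 12.8% of rows. Within plain rows all 10 fold changes were above 0, with a median of 0.60, so this direction also turns with the total, and GAPDH and ENO1 turn with TMM factors and GAPDH with the deposited scaling.

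Each IgG library of 22Rv1 held reads of all 10 messages. Their means lay below input for every plain member row under each scaling, from 0.398 times input for LDHA to 0.733 times for PGK1, and 4 of 10 (PKM, LDHA, ACTB and ACTG1) lay below input in every library, against 25.5% of plain rows. Limma called 0 of 12 rows, with 3 at an unadjusted p under 0.05, against 0.19% of rows, edgeR called 0 with 2, and DESeq2 called 0 with 0. The log2 fold was -0.95 for ACTB (SE 0.40, limma adjusted p = 0.322), -0.94 for ACTG1 (SE 0.40, limma adjusted p = 0.332) and -0.71 for GAPDH (SE 0.35, limma adjusted p = 0.388). Replicate C, the shallowest of the 3, held the 10 messages at a median of 0.999 times input, against 0.490 in A and 0.414 in B. Without it 8 member rows were called lower, where 19.0% of all rows were, and GAPDH fell by 1.05 on the log2 scale (limma adjusted p = 0.00638).

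Beside IgG, neither antibody of 22Rv1 gave a member row called by limma's main fit, edgeR or DESeq2 on all libraries. Some other limma settings on all libraries did call member rows, and their counts are given at the end. Weights from voom called 1 higher for Brg1, where they called 360 of 17404 rows higher. For Sfpq they called 8 higher, where they called 3062 of 17404 rows higher. For Brg1 against IgG, limma called 0 of 12 with 0 at an unadjusted p under 0.05, against 0.448% of rows, and edgeR and DESeq2 also called 0 with 0. The members' median log2 fold change was 0.45, beside 0.02 over all plain rows. GAPDH was at 0.808 times its IgG mean (log2 -0.23, limma adjusted p = 0.808) and ACTB at 1.22 times (log2 0.40, limma adjusted p = 0.684), the former turning within plain rows and with the deposited scaling. For Sfpq against IgG, limma called 0 of 12 with 2 at an unadjusted p under 0.05, against 2.74% of rows, and edgeR and DESeq2 called 0, each with 2. The members' median there was 0.81, beside 0.92 over all plain rows. TUBB was at 1.87 times IgG (log2 0.98, SE 0.35, limma adjusted p = 0.135) and ACTB at 1.65 times (log2 0.84, SE 0.40, limma adjusted p = 0.225), while GAPDH was at 0.848 times and turned with the deposited scaling. Without IgG replicate C, ACTG1 and PKM were called higher in Brg1 than in IgG, where 14.0% of all rows were. In Sfpq 7 member rows were called higher, GAPDH not among them, where 23.4% of all rows were. Without IgG replicate A, PKM.primary was called lower in Sfpq than in IgG, as 6.32% of all rows were.

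**Figure D2:**
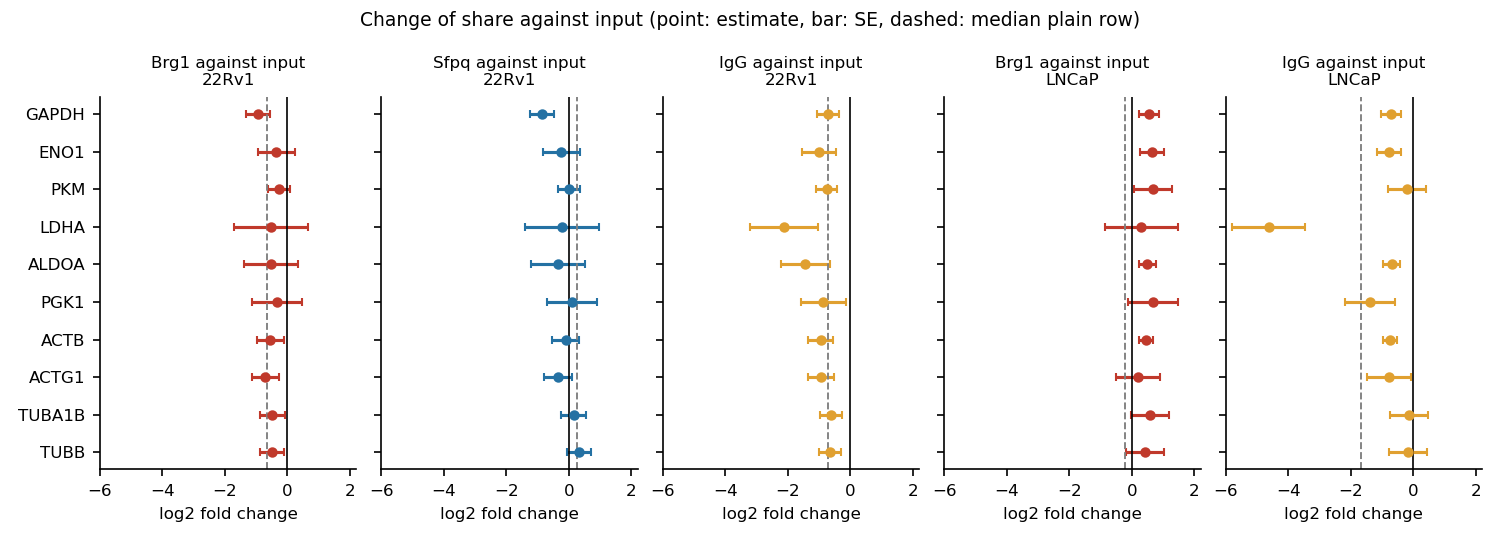
Log2 fold change of share against input for the plain rows of the 10 genes, 1 panel per comparison, with points for limma's estimate, bars for its SE and a dashed line at the median of all plain rows tested. In 22Rv1 Brg1 the points lie between -0.94 and -0.27 and in LNCaP Brg1 between 0.20 and 0.68, the former turning for 9 of 10 within plain rows and the latter for all 10 with the deposited scaling, and no point was called.

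In LNCaP the Brg1 libraries held larger shares of these messages than input on average, a direction that turns with the deposited scaling. GAPDH took 2123 and 1494 in Brg1, 1122 and 1333 in input and 586 and 929 in IgG. ENO1 took 1194 and 832 in Brg1, 594 and 675 in input and 270.5 and 497 in IgG. Both enzymes were highest in the 2 Brg1 libraries and lowest in the 2 IgG libraries, with no overlap. PKM took 1134 and 852 in Brg1, 585 and 645 in input and 947 and 302 in IgG, where the IgG libraries lay on both sides of input. LDHA took 552 and 405 in Brg1, 356 and 406 in input and 0 and 43.2 in IgG. Its Brg1 replicate B thus stood just under input replicate B, and its IgG values are 0 and 2 reads. ALDOA took 1079 and 767 in Brg1, 589 and 696 in input and 361 and 432 in IgG. PGK1 took 519 and 361 in Brg1, 241 and 301 in input and 45.1 and 216 in IgG, the first of these a single read. For both, every Brg1 library lay above every input and every IgG library below.

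The actins and tubulins were likewise higher on average in Brg1 than in input (with the same exception), and scattered in IgG. ACTB took 1443 and 1109 in Brg1, 860.4 and 999 in input and 496 and 605 in IgG, so the 3 groups did not overlap. ACTG1 took 909.9 and 647 in Brg1, 612 and 732 in input and 766 and 194 in IgG, so all 3 groups overlapped. TUBA1B took 760.1 and 528 in Brg1, 406 and 442 in input and 676 and 216 in IgG. TUBB took 872 and 637 in Brg1, 503 and 610.4 in input and 856 and 281 in IgG. For both tubulins the Brg1 libraries lay above input, and the IgG libraries, of 10 to 19 reads per gene, lay on both sides of it.

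Against input, Brg1 of LNCaP stood at ratios of mean share from 1.16 (ACTG1) to 1.63 (PGK1), and 8 of 10 plain rows were above input in every library, where 14.7% of plain rows were. All 10 log2 fold changes were above 0 on shares, with TMM factors, within plain rows and with edgeR and DESeq2, and all 10 were below 0 with the deposited scaling. The deposited scaling moved the median of all rows by -1.38 (log2), and the members' median under it was -0.85 beside -1.42 for all rows. On shares the members' median was 0.52, beside -0.23 over all plain rows, and the members lay between the 85.0th percentile of plain rows (ACTG1) and the 99.0th (PKM and PGK1). Brg1 replicate A was above replicate B for every member, and without it the ratios to mean input ran from 0.964 (ACTG1) to 1.39 (PKM).

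No member passed the test in that comparison. Limma called 0 of 13 member rows tested (the 10 plain rows with GAPDH.primary, PKM.primary and LDHA.primary), with 0 at an unadjusted p under 0.05, against 0.0% of 15523 rows. edgeR called 0 with 0, DESeq2 called 0 with 1, and weights from voom called 6, where they called 27.6% of all rows. The log2 fold was 0.45 for ACTB (SE 0.23), 0.50 for ALDOA (SE 0.26) and 0.54 for GAPDH (SE 0.32), each with a limma adjusted p of 1.0, and the 95% intervals of all 3 include 0. PGK1 stood at 0.68 and was called in a fit on only the 2 groups compared (limma adjusted p = 0.0382), where 15.5% of rows were called higher, and in fits without IgG replicate A or without replicate B, where 15.2% were called higher in each. Among reads on plain rows all 10 members were above input in both Brg1 libraries, against 47.7% of plain rows, with a median ratio of 2.0 beside 1.15 for all plain rows.

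The LNCaP IgG libraries held LDHA at 2 reads in all, 0.0765 times the pooled input share (exact counting interval 0.00926 to 0.276). The fit gave it -4.63 (SE 1.16, limma adjusted p = 0.0514), which rests on those reads and on the pseudocount. ACTB stood at -0.75 (SE 0.23, limma adjusted p = 0.0892) and GAPDH at -0.73 (SE 0.32, limma adjusted p = 0.221), and within plain rows both lay above input, at 0.12 and 0.15. Limma called 0 of 13 member rows, with 2 at an unadjusted p under 0.05, where 27.9% of rows were called, edgeR called 1 (LDHA) with 7, where it called 10.3% of rows, and DESeq2 called 2 (LDHA and ACTB) with 7, where it called 12.6%. In fits without 1 IgG library the other is assumed to vary like the other groups. Without IgG replicate A, which holds SMARCA4 near its level in Brg1, 7 member rows were called, all lower, where 78.7% of all rows were called. Without replicate B 8 were called, 6 lower and GAPDH.primary and LDHA.primary higher, where 88.9% of all rows were. GAPDH.primary thus turned from -2.43 to 0.90 with the IgG library used. Plain rows below input in both IgG libraries were 6 of 10 members and 56.5% of the table.

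Beside IgG, LNCaP Brg1 gave the member rows that passed the test, and they were 3 of 13, all higher, against 27.7% of rows called in the table. All 3 were plain rows, and of the 7245 plain rows tested 2487 were called higher. The median log2 fold change was 1.20 over the 10 members and 1.45 over all plain rows. The control here includes the library labelled IgG replicate A, which held SMARCA4 at 7212 CPM, beside 10406 to 12763 in Brg1. ACTB rose 2.32-fold in mean share (log2 1.20, SE 0.23, limma adjusted p = 0.0204), and both of its Brg1 libraries were above both IgG libraries. ALDOA rose 2.33-fold (log2 1.19, SE 0.26, limma adjusted p = 0.0337). Both ACTB and ALDOA lay below the plain-row median of 1.45. LDHA rose by 4.94 on the log2 scale (SE 1.16, limma adjusted p = 0.0420), on 2 reads of IgG, whose pooled share was 0.0615 times that of Brg1 (exact counting interval 0.00744 to 0.222). GAPDH was at 2.39 times IgG (log2 1.27, SE 0.32, limma adjusted p = 0.0550) and did not pass. LDHA was not called at a pseudocount of 1 (limma adjusted p = 0.108) or within plain rows (limma adjusted p = 0.110), where ACTB and ALDOA were. edgeR called 9 member rows and DESeq2 8, all higher, where they called 6.04% and 3.64% of all rows higher, while none was called without Brg1 replicate A, input replicate A or input replicate B. Without Brg1 replicate B 1 was called (ACTB), where 24.4% of all rows were. Without the library labelled IgG replicate A, 12 member rows were called, all higher, where 79.4% of all rows were called. Without IgG replicate B 8 were called, where 88.2% of all rows were, 6 higher and GAPDH.primary (-1.18) and LDHA.primary (-1.01) lower. GAPDH.primary stood at 2.14 without replicate A, so its direction depended on which IgG library was used.

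Summed over the 10 plain rows, the messages took 0.665% and 0.711% of reads in 22Rv1 input, 0.428% and 0.515% in Brg1, 0.680% and 0.576% in Sfpq and 0.322%, 0.269% and 0.675% in IgG. In LNCaP they took 0.587% and 0.684% in input, 1.06% and 0.763% in Brg1 and 0.5004% and 0.372% in IgG. The Brg1 sum was thus below input in 22Rv1 and above it in LNCaP in every library, the latter turning with the deposited scaling. Of the reads on plain rows it was above input in both lines, at 1.31% ± 0.0950 against 1.08% ± 0.00940 in 22Rv1 and at 2.04% ± 0.155 against 1.04% ± 0.0270 in LNCaP (SD, n = 2 each). Every Brg1 library was below input in 22Rv1 and above it in LNCaP for 8 of the 12 member rows tested in both lines. Both conditions were met by 5.13% of all 13146 rows tested in both, plain and .primary rows together. The 8 are all plain rows. Of plain rows, 88.5% met the first condition in 22Rv1 and 14.7% the second in LNCaP. The joint share among plain rows was not counted. The lines are set side by side without a test. The enzymes and the cytoskeleton messages showed the same order: in 22Rv1 the enzymes took 0.291% ± 0.0163 of input and 0.203% ± 0.0277 of Brg1, and the cytoskeleton messages 0.397% ± 0.0161 and 0.269% ± 0.0336. In LNCaP the enzymes took 0.377% ± 0.0401 of input and 0.566% ± 0.134 of Brg1, and the cytoskeleton messages 0.258% ± 0.0284 and 0.345% ± 0.0752.

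**Figure D3:**
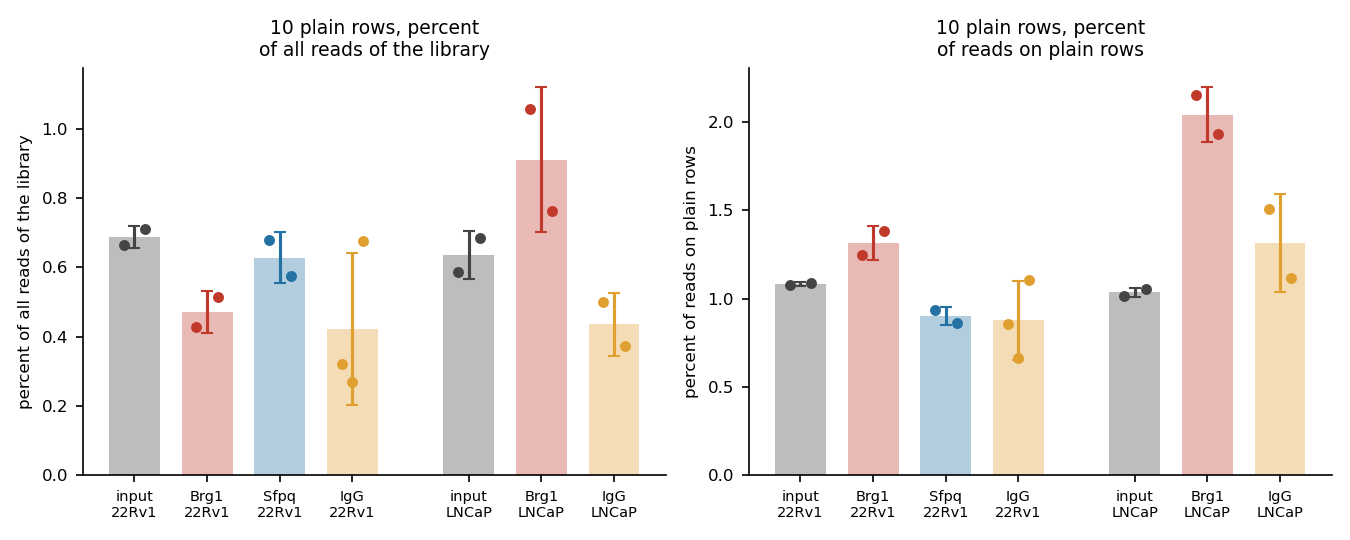
Summed share of the 10 plain rows, as a percent of all reads on the left and of the reads on plain rows on the right, with bars for group means, whiskers for SD and points for libraries (n = 2 per group, 3 for 22Rv1 IgG). The 22Rv1 Brg1 bar is below input on the left and above it on the right, and the LNCaP Brg1 bar is above input in both panels.

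In 22Rv1, the medians of other genes of the same pathways, from lists set beside the members, lay near the members' medians. In 22Rv1 Brg1, 12 of 18 other glycolysis genes were tested, all 12 were below input and none was called, with a median of -0.47 that turns to 0.28 within plain rows. Of all 8839 plain rows tested 8353 were below input there, with a median of -0.67. GPI, an early isomerase of the pathway, took 283 CPM against 368 in input and TPI1, the triose phosphate isomerase, took 202 against 365. Of 34 other cytoskeleton genes 31 were tested, with 30 below input, none called and a median of -0.67 that turns to 0.09 within plain rows. MYH9, a non-muscle myosin, took 301.5 ± 26.9 CPM against 366 ± 14.6 in input (SD, n = 2 each). In Sfpq the medians were -0.11 and -0.12, with none called, and turned to 0.04 and 0.03 with DESeq2's size factors. On shares, 17 of 31 cytoskeleton genes lay below input in Sfpq, where 3173 of 8839 plain rows did. MYH9 was at 657 CPM in Sfpq and FLNA, an actin cross-linker, at 457 against 245 in input, while VIM, an intermediate filament protein, was at 207 against 251.

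In LNCaP Brg1 the other glycolysis genes had a median of 0.22, with 10 of 14 above input. The other cytoskeleton genes had a median of 0.19, with 21 of 28 above. Both medians lay below the members' median of 0.52, and 2123 of all 7245 plain rows tested were above input. No gene was called in either list, and both list medians turn with the deposited scaling, as does the members' median. GPI took 744 CPM against 537, and MYH9 654 against 508. In the IgG libraries the medians of the 2 lists were -0.86 and -1.02 in 22Rv1, with none called, and -1.90 and -1.75 in LNCaP, with 3 of 14 and 7 of 28 called lower, where 34.5% of plain rows were. The members' medians in IgG were -0.90 in 22Rv1 and -0.74 in LNCaP, and those of all plain rows tested -0.71 and -1.69.

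In Brg1, the medians of other abundant messages stood lower against input than those of the members, -0.50 in 22Rv1 and 0.52 in LNCaP. Abundant translation messages, such as EEF1A1, the elongation factor that brings tRNA to the ribosome, were all 11 below input in 22Rv1 Brg1 (median -1.55, none called). They were also all 11 below in Sfpq (median -1.31, 1 called lower), and 10 of 11 were below in LNCaP Brg1 (median -0.74, none called). In IgG all 11 were below as well, with medians of -1.08 in 22Rv1 and -1.27 in LNCaP. These medians stayed below 0 under each scaling. Over all plain rows tested the medians were -0.67 in 22Rv1 Brg1, 0.26 in Sfpq and -0.23 in LNCaP Brg1. In IgG they were -0.71 in 22Rv1 and -1.69 in LNCaP. EEF1A1 took 1193 CPM in 22Rv1 Brg1 against 3714 in input. The 13 mitochondrially encoded messages had a median of -2.96 in 22Rv1 Brg1, with 2 called lower, and of -2.11 in LNCaP Brg1, with none called, beside 0.06 in Sfpq, 0.0040 in 22Rv1 IgG (-7.64 with the deposited scaling) and -1.46 in LNCaP IgG, where all 13 were below input, and both Brg1 medians stayed below 0 under each scaling. Among them MT-ND4, a subunit of respiratory complex I, fell from 1982 to 177 CPM in 22Rv1 Brg1 (log2 -3.44, SE 0.40, limma adjusted p = 0.0456). Together these mitochondrial messages took 0.195% to 0.222% of reads in 22Rv1 Brg1 against 1.60% to 1.92% in input, and 0.771% to 1.38% against 3.81% to 4.53% in LNCaP. Nuclear-retained long non-coding RNAs, 5 of 6 tested, had medians of 1.21 in 22Rv1 Brg1 and 0.27 in LNCaP Brg1, with none called, the latter turning with the deposited scaling. In Brg1 of each line 3 of the 5 lay above input and 2 below. On shares, the medians of these 5 were also above 0 in Sfpq (0.45) and in 22Rv1 IgG (0.51), and -0.61 in LNCaP IgG. For Brg1 against IgG they were -0.12 in 22Rv1 and 0.96 in LNCaP. MALAT1 took 6197 CPM in 22Rv1 Brg1 against 2676 in input, and TUG1 took 80.6 against 147. The part of these other RNAs, and of the share on .primary rows, in the members' shares was not tested.

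**Figure D4:**
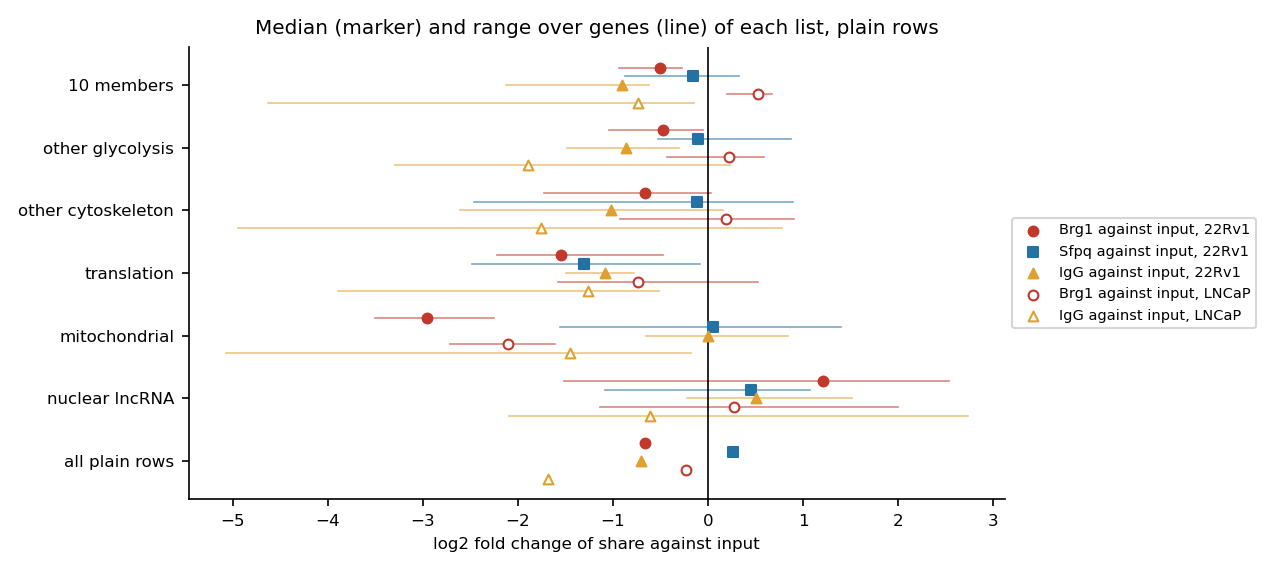
Median (marker) and range over genes (line) of the log2 fold change of share against input for each gene list, plain rows, by comparison. In 22Rv1 Brg1 the members' median is -0.50, beside -0.47 for the other glycolysis genes. The medians of the other cytoskeleton genes and of all plain rows are both -0.67. Those of the translation (-1.55) and mitochondrial messages (-2.96) lie lower, and the members' median turns to 0.32 within plain rows.

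Of the rows with the suffix, PKM.primary was the largest, and in 22Rv1 Brg1 it lay above input where its plain row lay below. It took 97.4 and 93.3 CPM in 22Rv1 Brg1, 55.1 and 54.9 in input, 31.0 and 37.8 in Sfpq and 49.0, 61.1 and 93.7 in IgG. Both Brg1 libraries were above both inputs, as for 5630 of the 8565 .primary rows tested. Both Sfpq libraries were below both inputs, as for 5569 of these rows. PKM.primary in Brg1 stood at a log2 fold of 0.74 (SE 0.42, limma adjusted p = 0.647), which turns to -0.022 within .primary rows. Of all PKM reads the row held 15.2% ± 2.17 in Brg1, 14.7% ± 0.729 in IgG, 7.86% ± 0.415 in input and 5.09% ± 1.13 in Sfpq (SD, n = 3 for IgG and 2 otherwise). In LNCaP it took 72.6 and 84.2 in Brg1, 67.3 and 60.6 in input and 90.2 and 21.6 in IgG (2 reads and 1 read), or 7.50% ± 2.11, 9.46% ± 1.22 and 7.68% ± 1.43 of PKM reads (SD, n = 2 each).

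The ratio of the .primary to the plain row was tested across 5860 genes in 22Rv1 and 4678 in LNCaP. For PKM in 22Rv1 the log2 ratio of Brg1 minus that of input was 1.01 (SE 0.56, limma adjusted p = 0.507), beside a median of 0.996 over all genes tested. In Sfpq this difference was -0.62 (SE 0.56, limma adjusted p = 0.691), beside -0.89, and in IgG 0.99 (SE 0.51, limma adjusted p = 0.568), beside 0.42. In LNCaP Brg1 it was -0.40 (SE 0.61, limma adjusted p = 1.0), beside 0.28. No member ratio passed in any of the 5 comparisons with input, where limma called 0.0% of genes except in LNCaP IgG, with 5.41%, and the number of all genes at an unadjusted p under 0.05 was 621 for Brg1, 514 for Sfpq and 580 for IgG in 22Rv1 and 92 for Brg1 and 1033 for IgG in LNCaP. In LNCaP IgG the LDHA difference was 5.23 (SE 1.48, limma adjusted p = 0.120), on 2 reads of the plain row. For GAPDH it was 0.80 in 22Rv1 Brg1 (SE 1.18, limma adjusted p = 0.791) and -0.83 in LNCaP Brg1 (SE 1.46, limma adjusted p = 1.0). In a fit on only the 2 groups compared, PKM and GAPDH were both called for Brg1 and for Sfpq in 22Rv1, where 76.8% and 73.1% of all genes were.

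**Figure D5:**
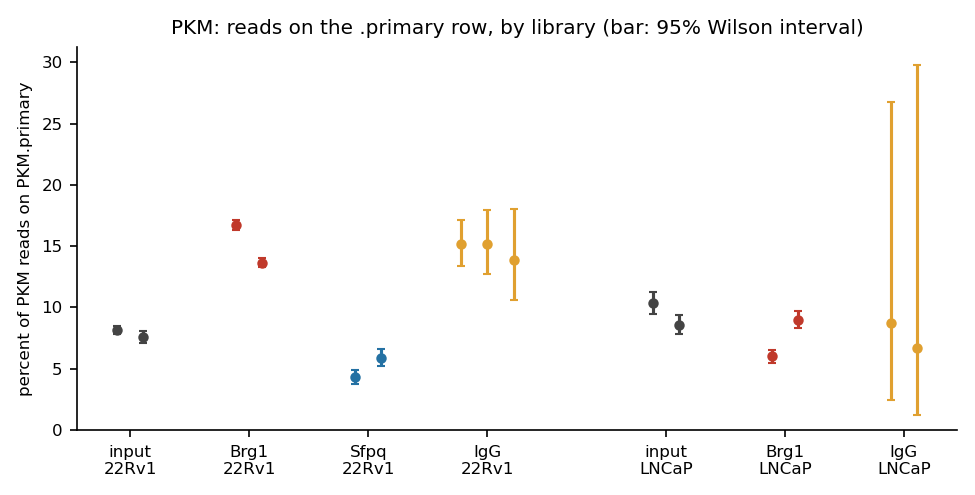
Percent of PKM reads on the .primary row, 1 point per library, with 95% Wilson intervals that cover counting error only. In 22Rv1 the Brg1 points (13.7% and 16.7%) and the IgG points (13.9% to 15.2%) lie above input (7.56% and 8.15%) and Sfpq (4.29% and 5.88%), and the LNCaP IgG points rest on 2 reads and 1 read of the row.

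The other 4 rows with the suffix were small. GAPDH.primary took 11.5 and 12.2 CPM in 22Rv1 Brg1, 14.7 and 12.3 in input, 12.6 and 14.6 in Sfpq and 48.6, 11.4 and 0 in IgG, where a count of 0 in replicate C allows up to 6.11. LDHA.primary took 9.80 and 11.9 in Brg1, 13.2 and 11.0 in input and 2.66 and 3.13 in Sfpq, so that both Sfpq libraries lay below both inputs. In IgG replicate B it held 24 reads, where the plain LDHA row held 3, and in IgG replicate A 2 reads, where the plain row held 509. TUBB.primary took 7.85 and 11.8 in Brg1, 14.4 and 12.9 in input, 19.7 and 17.8 in Sfpq and 0 in the 3 IgG libraries, which allows up to 0.678, 1.71 and 6.11. TUBA1B.primary had 0 reads in input replicate A of both lines, beside 175 reads in input replicate B of 22Rv1 and 74 in that of LNCaP, and 311 and 348 reads in 22Rv1 Brg1. LDHA.primary in 22Rv1 and both .primary tubulin rows in both lines did not reach the minimum mean of 10 CPM and were not tested.

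Over the 9 libraries of 22Rv1 the rows whose log2 share followed the mean of the members most closely were HIST2H3C, a histone gene (Pearson r = 0.993), SHMT2, a mitochondrial enzyme of serine metabolism (r = 0.990), and SLC25A5, a mitochondrial ADP/ATP carrier (r = 0.985), of 4928 rows compared. Over the 6 libraries of LNCaP they were CCT8, a subunit of the chaperonin that folds actin and tubulin (r = 0.997), NUP205, a nuclear pore protein (r = 0.995), and HSP90AA1, a chaperone (r = 0.994), of 4371 rows. These values describe likeness over few libraries that share depth and groups.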

How the data were processed

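Normalized counts (a signal, in 1 table per line) are as the authors deposited them. The submitters' processing notes name hg38, STAR 2.6, Salmon 0.8.2, deepTools 2.5.2 and DESeq2, without saying what each did. Each library's values, divided by its smallest positive value, came out whole to within 0.001 for 100.0% of them. These are taken as reads, which were divided by the library total to give shares, so the authors' factors do not enter. Depth per library and its floors are in the results.

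The test was limma 3.58.1 in R 4.3.3 (eBayes with trend) on log2(CPM + 5). It used rows with a mean of at least 10 CPM and all groups of a line in a single fit, with Benjamini-Hochberg adjustment over all rows and calls under 0.05. Fold changes are on this scale and understate those of low rows. Ratios of .primary to plain rows used the same test. Alternatives were pseudocounts of 1 and 20, no filter or a minimum of 50, TMM factors, shares within plain or .primary rows, the deposited scaling, narrow fits (the 2 groups of a comparison alone), a replicate block by letter, voom weights, edgeR 4.0.16, DESeq2 1.42.0, ratios without trend and leaving out each library. A crossed block was added after seeing the data.

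Statistics are printed for GAPDH and ACTB and for called rows, or else the 2 rows of smallest p, in each comparison with input. Other genes are named as the closest 3 rows per table, the antibody targets, or the most abundant of a list in input, and PGK1 and the IgG comparisons were added after their values were seen. The members and lists were chosen with earlier results of these data known. Lists under TMM and DESeq2 were placed by the shift seen in the members. Scripts were tested on simulated data. No sequence of the members was at hand, so none is shown and read sharing among near-identical copies was not checked. Positions are from RefSeq on GRCh38.p14.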

Additional observations from a re-analysis of the deposited data

Results flagged for a closer look

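In 8 of the 12 member rows tested in both lines, Brg1 stood below input in 22Rv1 and above it in LNCaP, with every Brg1 library on its own side of every input. The log2 fold changes in 22Rv1 and LNCaP were -0.94 and 0.54 for GAPDH, -0.35 and 0.65 for ENO1, -0.27 and 0.67 for PKM and -0.52 and 0.50 for ALDOA. They were -0.33 and 0.68 for PGK1, -0.54 and 0.45 for ACTB, -0.48 and 0.58 for TUBA1B and -0.48 and 0.43 for TUBB. The same held for 5.13% of the 13146 rows tested in both lines, which include .primary rows, while these 8 are all plain. Of plain rows, 88.5% lay below input in 22Rv1 in this way and 14.7% above it in LNCaP. The share of plain rows that did both was not counted. The difference between the lines was not tested. For IgG against input the count of such rows was 0. Within plain rows 7 of these 8 (all but GAPDH) lay above input in both lines. With the deposited scaling all 8 lay below input in both lines.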

How the results depend on the processing

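Member rows called, beside the results above, were as follows. Counts with no filter, another minimum or pseudocount, a replicate block, TMM or the deposited scaling lack the background of their own comparison. Such counts are not results about the members by themselves. For Brg1 against input in 22Rv1 there were 10 in a fit on 2 groups, 7 with voom and 0 to 2 leaving out a library. For Sfpq against input there were 4 on 2 groups and 1 with voom. For IgG against input in 22Rv1 there were 1 with no filter, 12 with the deposited scaling, 8 with the replicate block, 9 with voom and 0 to 8 leaving out a library. For Brg1 against IgG in 22Rv1 these were 1, 12, 2, 1 and 0 to 2, and for Sfpq against IgG 1, 12, 6, 8 and 0 to 7. For Brg1 against Sfpq there were 1 at a minimum mean of 50, 5 on 2 groups, 3 with the replicate block, 4 with voom, 1 with DESeq2 and 0 to 3 leaving out a library. For Brg1 against input in LNCaP there were 3 with the deposited scaling, 1 on 2 groups, 6 with voom and 0 to 1 leaving out a library. For IgG against input in LNCaP there were 1 at a pseudocount of 20, 3 with no filter, 1 with TMM, 13 with the deposited scaling, 2 with voom, 1 with edgeR, 2 with DESeq2 and 0 to 8 leaving out a library. For Brg1 against IgG in LNCaP there were 6 with no filter, 0 at a minimum of 50, 7 with TMM, 13 with the deposited scaling, 0 on 2 groups, 0 with the replicate block, 9 with voom, 9 with edgeR, 8 with DESeq2 and 0 to 12 leaving out a library. Ratios called were 2 on 2 groups for Brg1 and for Sfpq in 22Rv1, and 0 to 2 leaving out a library for IgG in LNCaP. Over the comparisons, the share of all rows called ran from 0.0% to 82.0% in fits on 2 groups, from 4.59% to 56.4% with voom, from 0.0977% to 99.9% with the deposited scaling, from 0.0% to 32.7% with the replicate block and from 0.0% to 88.9% leaving out a library. With no filter the share of all rows called ran from 0.0399% to 47.4%. It ran from 0.0% to 28.7% at a pseudocount of 20 and from 0.0% to 30.9% at a minimum of 50. With TMM it ran from 0.0% to 30.0%, with edgeR from 0.00575% to 17.3% and with DESeq2 from 1.84% to 34.4%. These ranges pool all comparisons, so they give no background for the count of a single comparison. Of 17404 rows in 22Rv1, voom called 917 higher and 1641 lower for IgG against input, and 2063 and 682 for Sfpq against input. For Brg1 against Sfpq voom called 3497 higher and 5006 lower, and the fit on 2 groups 6826 and 7437. Of 15523 rows in LNCaP, voom called 1115 higher and 82 lower for IgG against input, and 101 and 905 for Brg1 against IgG. Same-letter deviations correlated at -0.523 to 0.079. In groups of 2 libraries the deviations mirror each other, so opposite letters give the reverse sign, as 0.523 for LNCaP Brg1 with input. These values cannot settle whether the letters pair the libraries. A crossed replicate block, added after seeing the data, called 0 rows for Sfpq against input, 3 for Brg1 against Sfpq and 0 for Brg1 against input in LNCaP. Signs turned for PKM.primary (-0.022) and ACTB (0.28) in 22Rv1 Brg1 and for ACTB (0.12) and GAPDH (0.15) in LNCaP IgG within suffix classes, and for ACTB in Sfpq with DESeq2 (0.044). They also turned for ACTB (-0.93), ALDOA (-0.87) and GAPDH (-0.83) in LNCaP Brg1 with the deposited scaling. The GAPDH ratio turned in 22Rv1 IgG at a pseudocount of 1 (-0.055) and ran from -0.48 to 1.73 leaving out a library, and in LNCaP IgG it turned at a pseudocount of 20 (0.50) and ran from -2.03 to 1.95, with 0.25 without input replicate A. The summed share within plain rows was 1.31% in 22Rv1 Brg1, 2.04% in LNCaP Brg1, 0.877% in 22Rv1 IgG, 1.31% in LNCaP IgG, 1.08% and 1.04% in the inputs and 0.901% in Sfpq. Against the main scaling the deposited scaling moved the median of all rows by -0.48 (Brg1), -0.55 (Sfpq) and -7.45 (IgG) in 22Rv1 and by -8.53 in LNCaP IgG, beside input; scaling within suffix classes moved it by 0.19 in 22Rv1 Brg1, -0.13 in 22Rv1 IgG and -0.40 in LNCaP IgG, TMM factors by -0.53 in LNCaP IgG, edgeR by 0.44 and -0.21 and DESeq2 by 0.62 and 0.12 in the IgG comparisons of 22Rv1 and LNCaP, and DESeq2 by 0.12 in Sfpq and -0.11 in LNCaP Brg1. The cause of these changes was not tested. Depth limits the LNCaP IgG values most, since their member rows hold at most 43 reads.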
